A study of Epimedium pubescens with 12 samples.

Results

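The genes described here are EpPAL4 (Ebr06G007280), Ep4CL (Ebr04G003020) and EpCHI2 (Ebr06G004160), which code for enzymes near the start of the phenylpropanoid and flavonoid route in leaves of Epimedium pubescens. They were taken by gene identifier and make up 3 of the 53813 genes listed. EpCHI2 is also among the flavonoid genes that the study selected for being raised in 30d -P against 30d +P in these samples, so its direction there is not independent of that selection. EpPAL4 and Ep4CL have RT-qPCR primers in the study, which describes its RT-qPCR genes as differentially expressed in these data. Their values are therefore not independent of that choice either. Seedlings of E. pubescens, a medicinal plant of the family Berberidaceae, were collected at 1 year of age and grown in sand under 14 h of light a day. They received Hoagland solution with phosphate at 0 mmol/L (-P) or at 1 mmol/L (+P), and leaves were taken after 30 d or 90 d. This gave 4 groups, 30d -P and 30d +P followed by 90d -P and 90d +P, with 3 libraries each, lettered A, B and C, and 12 seedlings grown per replication. Each library is total leaf RNA, so fewer cells of a type and less RNA per cell cannot be told apart. Each treatment had a single harvest per time, so leaf age, harvest day and length of treatment cannot be told apart between 30 d and 90 d. How many plants gave the leaves of a library is not given in the sources used here, so the p-values measure the spread between these libraries.

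Phenylalanine ammonia-lyase (PAL) removes ammonia from phenylalanine to give cinnamic acid and so opens the phenylpropanoid route. Cinnamate 4-hydroxylase (C4H) adds a hydroxyl group, and 4-coumarate:CoA ligase (4CL) joins the product to coenzyme A. The resulting p-coumaroyl-CoA feeds lignin on one side and flavonoids on the other. Chalcone synthase (CHS) carries it into the flavonoid branch, where chalcone isomerase (CHI) closes the central ring to give a flavanone. In Epimedium this branch ends in prenylated flavonol glycosides such as icariin, the compounds for which the leaves are used. PAL, 4CL and CHI belong to families in which gene copies can serve different branches.

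The study designed RT-qPCR primers for EpPAL4 and Ep4CL. They are shown because each pair is listed with a gene identifier: the EpPAL4 pair with Ebr06G007280 on chromosome 6, and the other pair with Ebr04G003020 on chromosome 4. Whether a pair tells its gene from other copies was not examined. The study numbers the gene of the other pair in differing ways, so it is called Ep4CL here without a number. No part is set in capitals, since no position was matched to a genome.
EpPAL4 forward primer: tctggttcatgtggcacagtag
EpPAL4 reverse primer: cgtggaatcagcatcatttagg
Ep4CL forward primer: tctaccgtgcttgatgatg
Ep4CL reverse primer: gacctgttgagtgtgctta
The EpPAL4 primers are 22 bases long each and the Ep4CL primers 19 bases each. No primer sequence of EpCHI2 was used here.

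The libraries held 14756971 to 18153463 counted reads, and 24307 genes had enough reads to be tested. Spearman's rho between libraries of a group ranged from 0.870 to 0.966 over genes, lowest in 90d +P. The leaf label was checked against 63 genes annotated as chlorophyll a-b binding protein or small subunit of ribulose bisphosphate carboxylase, both abundant in leaf mesophyll, of which 3 had no reads. Their summed level ran from 28280 FPKM in 90d +P replicate B to 95610 FPKM in 30d +P replicate B and took 4.30% to 10% of all FPKM. FPKM, reads per kilobase of gene and per 1000000 reads, sets different genes on one scale. CPM, counts per 1000000 after TMM scaling, is used below to compare libraries for the same gene.

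All 3 genes had reads in every library and were tested. By FPKM, EpCHI2 was the highest, Ep4CL next and EpPAL4 the lowest in 12 of 12 libraries. Averaged over 3 libraries, EpCHI2 stood at 517 FPKM in 30d -P, 355 FPKM in 30d +P, 320 FPKM in 90d -P and 347 FPKM in 90d +P. The corresponding means of Ep4CL were 189, 96.2, 43.7 and 62.3 FPKM. Those of EpPAL4 were 19.5, 3.47, 2.84 and 4.81 FPKM. The ratio of EpCHI2 to Ep4CL was 2.53 to 4.21 in the 6 libraries of 30 d and 4.23 to 14.9 in the 6 libraries of 90 d, a description chosen after the values were seen. The ratio of Ep4CL to EpPAL4 moved more within groups, from 5.69 to 201 in 30d -P alone. The distance between the isomerase and the ligase was thus wider at 90 d, while the distance between the ligase and this PAL copy followed single libraries.

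**Figure D1:**
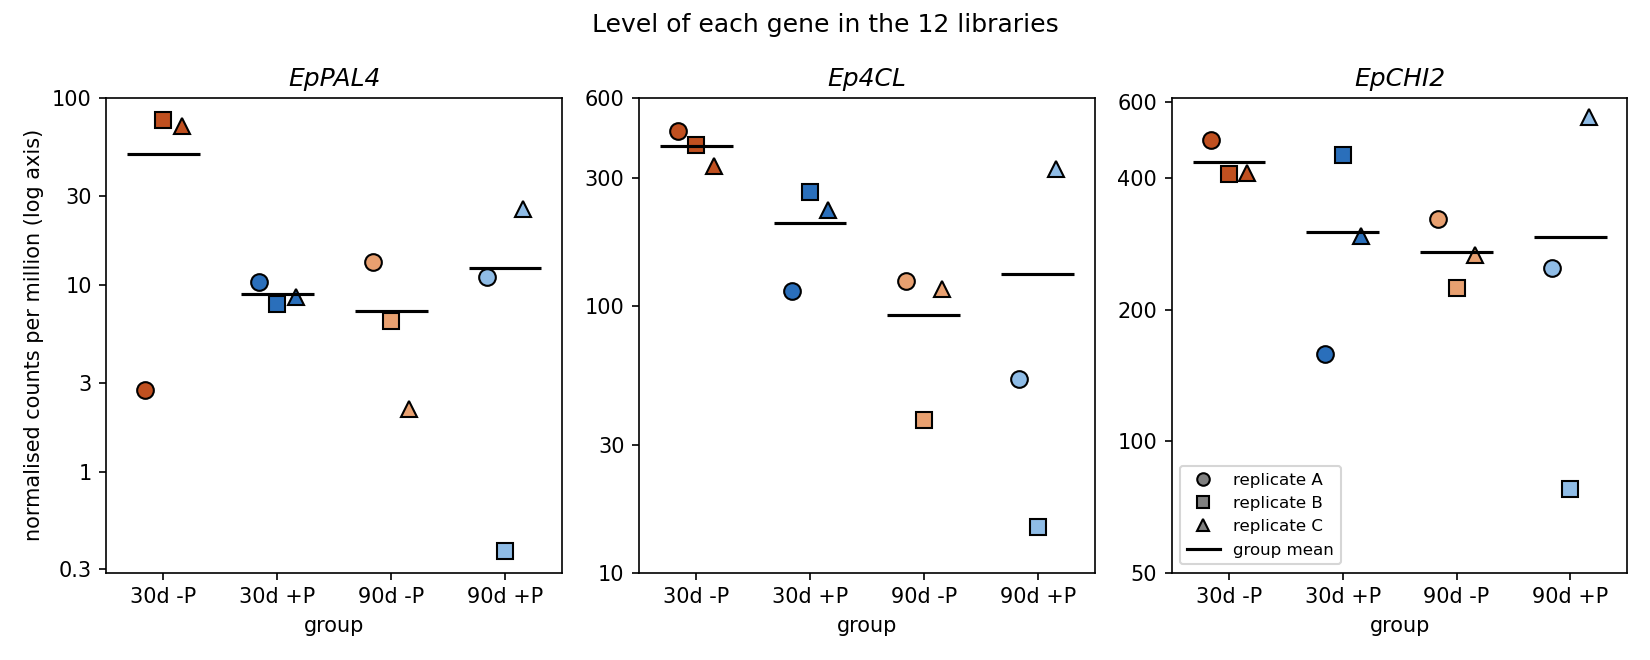
Normalised counts per 1000000 (CPM, log axis, a different range in each panel) of EpPAL4, Ep4CL and EpCHI2 in the 12 libraries, with circles, squares and triangles for replicates A, B and C and a bar for the mean of each group. The 3 libraries of 30d -P sit above those of 30d +P for Ep4CL only, and the libraries of 90d +P run from 0.376 to 25.5 CPM for EpPAL4, from 14.8 to 325 CPM for Ep4CL and from 77.8 to 554 CPM for EpCHI2.

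EpPAL4, the PAL copy, lies on the minus strand of chromosome 6 from 50165407 to 50170790 in the coordinates of the deposited tables, with a listed length of 2522 bases. In 30d -P, replicate B held 1179 reads (77.1 CPM), replicate C 1119 reads (71.3 CPM) and replicate A 38 reads (2.73 CPM). Its 3 libraries of 30d +P lay close together at 157, 105 and 130 reads, or 7.87 to 10.3 CPM. Replicates B and C of 30d -P were therefore above every 30d +P library and replicate A was below every one. The exact 95% Poisson interval of the 38 reads, 26.9 to 52.2 reads, covers counting error only and stays far below the counts of B and C. In 90d -P the gene had 220, 105 and 35 reads in A, B and C (13.4, 6.39 and 2.16 CPM). In 90d +P it had 182, 7 and 473 reads (11, 0.376 and 25.5 CPM), and the interval of the 7 reads was 2.81 to 14.4 reads. Replicates A and C of 90d +P exceeded B of the same group, and the range of 90d -P fell inside that of 90d +P.

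The log2 fold change of EpPAL4 was 2.49 in 30d -P against 30d +P (SE, standard error, 1.29, 95% confidence interval -0.36 to 5.34, adjusted p = 0.713 from edgeR). This difference stood at percentile 97.8 of the log2 fold changes of all genes tested, yet the biological coefficient of variation fitted to the gene was 0.97, against 0.60 common to all genes. Without 30d -P replicate A the log2 fold change was 3.05 (adjusted p = 0.833). On the log2(FPKM + pseudocount) scale limma gave 1.46 with 1 added (adjusted p = 0.807) and 0.92 with 10 added (adjusted p = 0.702). At 90 d, in -P against +P leaves, it was -0.75 (SE 1.23, adjusted p = 1.00), and 0.36 without 90d +P replicate C. Between the times, 90d -P against 30d -P, it was -2.78 (SE 1.3, 95% confidence interval -5.67 to 0.10, adjusted p = 0.211), where replicate A of 30d -P sat inside the range of 90d -P. DESeq2 gave -2.77 with an adjusted p of 0.0475 on those 6 libraries and -2.78 with an adjusted p of 0.0744 on all 12. There limma on log2(FPKM + pseudocount) gave -1.84 with 1 added (adjusted p = 0.302) and -1.004 with 10 added (adjusted p = 0.178). For +P leaves, 90d +P against 30d +P, the value was 0.46 (SE 1.23, adjusted p = 0.879), and -0.66 without 90d +P replicate C. By group mean, 30d -P came before 90d +P, followed by 30d +P and last by 90d -P, and each neighbouring pair in that order overlapped.

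Ep4CL, the ligase, lies on the minus strand of chromosome 4 from 17019195 to 17022514, with a listed length of 2073 bases. In 30d -P it held 6284, 6145 and 5237 reads in A, B and C (451, 402 and 334 CPM). In 30d +P it held 1726, 3568 and 3430 reads (114, 268 and 229 CPM). Every library of 30d -P was above every library of 30d +P, with replicate A of 30d +P the lowest. In 90d -P the reads numbered 2042, 612 and 1868 (124, 37.2 and 115 CPM), and replicate B was the low one. In 90d +P they numbered 876, 275 and 6017 (53.1, 14.8 and 325 CPM). Replicate C of 90d +P was thus close to the lowest library of 30d -P, while A and B of 90d +P were below all 6 libraries of 30 d.

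In 30d -P against 30d +P the log2 fold change of Ep4CL was 0.96 (SE 0.88, 95% confidence interval -0.99 to 2.90, adjusted p = 0.883 from edgeR). Its groups did not overlap, for which the exact two-sided permutation test gave p = 0.1, the smallest that 3 libraries against 3 allow. Of all genes tested, 6.82% were also higher in 30d -P without overlap. At 90 d, in -P against +P leaves, the log2 fold change was -0.51 (SE 0.87, adjusted p = 1.00), and without 90d +P replicate C it was 1.45 (adjusted p = 0.654). For 90d -P against 30d -P it was -2.10 (SE 0.90, 95% confidence interval -4.11 to -0.09), with an unadjusted p of 0.0418 and an adjusted p of 0.178 from edgeR, where 16.5% of all genes had an unadjusted p below 0.05 with at least such a fold change as a call needs. All 3 libraries of 90d -P were below all 3 of 30d -P (exact permutation p = 0.1), as were 18% of all genes tested. This is the comparison in which the settings parted: limma-voom with sample quality weights gave -2.27 with an adjusted p of 0.0390, and DESeq2 on the 6 libraries gave -2.11 with an adjusted p of 0.000388. DESeq2 on all 12 libraries (-2.11, adjusted p = 0.0646) and edgeR on the 6 libraries (-2.08, adjusted p = 0.069) made no call. For 90d +P against 30d +P the log2 fold change was -0.64 (SE 0.87, adjusted p = 0.739), and without 90d +P replicate C it was -2.59 (adjusted p = 0.0730). The group means ran from 30d -P (395 ± 58.8 CPM, SD, n = 3) through 30d +P (203 ± 80.0 CPM) and 90d +P (131 ± 169 CPM) to 90d -P (92.2 ± 47.8 CPM). Only the first neighbouring pair in that order did not overlap.

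EpCHI2, the isomerase, lies on the plus strand of chromosome 6 from 26990478 to 27001194, with a listed length of 835 bases. In 30d -P it held 6814, 6261 and 6462 reads in A, B and C (489, 409 and 412 CPM), the tightest group for this gene. In 30d +P the reads numbered 2402, 6045 and 4416 (158, 453 and 295 CPM), so replicate B lay among the 30d -P libraries. In 90d -P they numbered 5316, 3683 and 4335 (323, 224 and 267 CPM). In 90d +P they numbered 4119, 1449 and 10263 (250, 77.8 and 554 CPM), which gave this group both the lowest and the highest library for EpCHI2. All 3 libraries of 90d -P were below all 3 of 30d -P, as were 18% of all genes tested.

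The log2 fold change of EpCHI2 was 0.53 in 30d -P against 30d +P (SE 0.57, 95% confidence interval -0.74 to 1.81, adjusted p = 0.908 from edgeR). At 90 d, in -P against +P leaves, it was -0.11 (SE 0.57, 95% confidence interval -1.39 to 1.16), and 0.73 without 90d +P replicate C. For 90d -P against 30d -P it was -0.69 (SE 0.58, adjusted p = 0.504), the value nearest to 0 of the 3 genes in these groups. DESeq2 on the 6 libraries gave -0.69 with an adjusted p of 0.0274, which was no call because the fold change was under 1 on the log2 scale. For 90d +P against 30d +P it was -0.04 (SE 0.57, 95% confidence interval -1.31 to 1.23). The fitted biological coefficient of variation was 0.50 for EpCHI2 and 0.71 for Ep4CL, so the isomerase was the most even of the 3 genes. Its group means were 437 ± 45.3 CPM in 30d -P, 302 ± 148 CPM in 30d +P, 294 ± 241 CPM in 90d +P and 272 ± 49.6 CPM in 90d -P (SD, n = 3), and each neighbouring pair overlapped.

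A gene was called where the Benjamini-Hochberg adjusted p from edgeR was at most 0.05 and the log2 fold change at least 1 in size. None of the 3 genes was called in any of the 5 comparisons. Between -P and +P, 0% of the genes tested were called at 30 d and 0% at 90 d, and 4.85% and 4.38% had an unadjusted p below 0.05 with such a fold change. DESeq2 called 560 and 184 genes there on the 6 libraries compared and 286 and 245 on all 12, and limma-voom called 398 and 0, none of them among the 3. Between 30 d and 90 d, 5.58% of all genes were called in -P leaves and 3.02% in +P leaves. The share with groups that did not overlap, in either direction, was 15.2% between -P and +P at 30 d and 8.92% at 90 d, and 33.3% between the times in -P leaves and 26% in +P leaves. The comparisons share libraries: 30d -P enters the first with a plus sign and the third with a minus sign, so a high 30d -P library raises one value and lowers the other.

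The interaction asks whether the difference between -P and +P changed from 30 d to 90 d, and it is the difference of the 2 log2 fold changes. It was -3.24 for EpPAL4 (SE 1.77, unadjusted p = 0.0960), -1.47 for Ep4CL (SE 1.24, unadjusted p = 0.262) and -0.65 for EpCHI2 (SE 0.81, unadjusted p = 0.444), each with an adjusted p of 1.00 from edgeR. In this test 0% of all genes were called, 2.52% had an unadjusted p below 0.05 with such a difference, and DESeq2 on all 12 libraries called 32 genes. Without 90d +P replicate C the interaction of Ep4CL was 0.49 and that of EpCHI2 0.20, and that of EpPAL4 was -2.13. The point estimates of all 3 genes lay above 0 at 30 d and below 0 at 90 d, and the change between them did not pass the test. As stated at the start, the 3 genes were not chosen independently of these data.

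**Figure D2:**
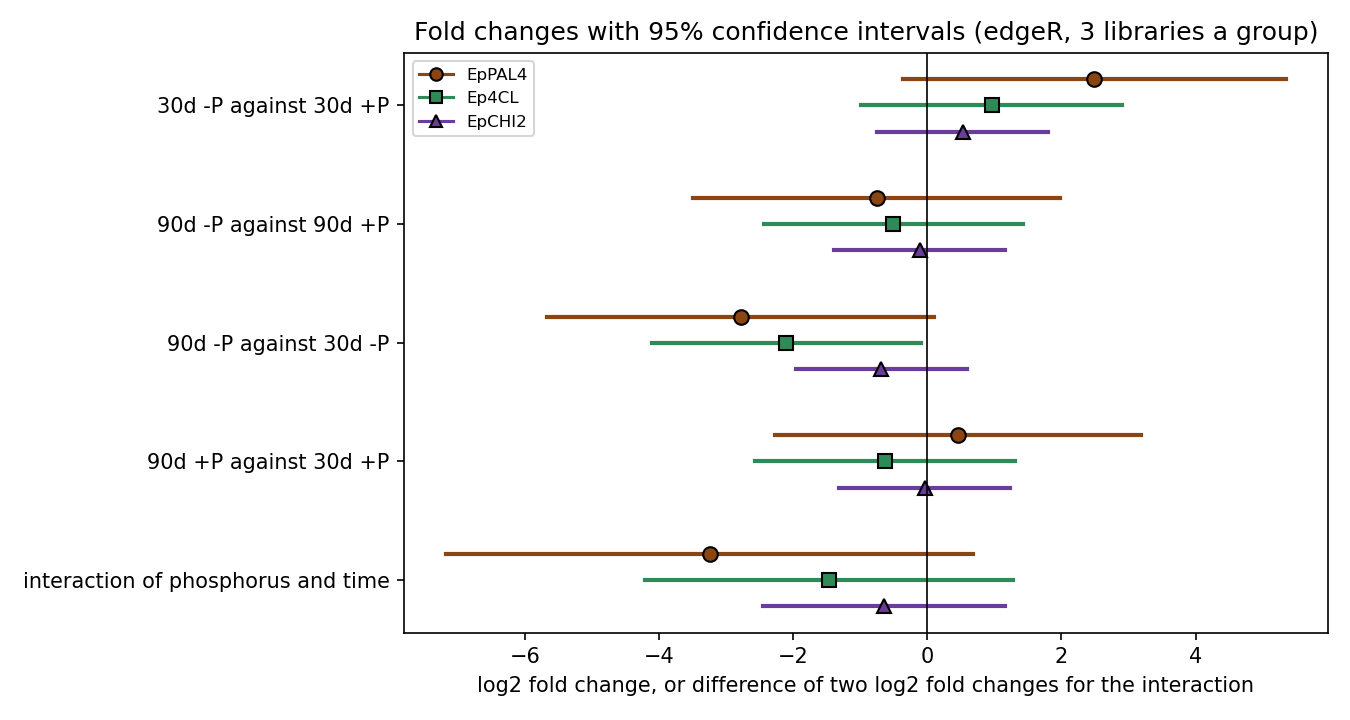
Log2 fold changes (points) and 95% confidence intervals (lines) of EpPAL4, Ep4CL and EpCHI2 from edgeR in the 4 comparisons of groups and in the interaction, with 3 libraries a group. The interval of Ep4CL in 90d -P against 30d -P, -4.11 to -0.09, is the only interval of the 15 drawn that lies on one side of 0.

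EpPAL4 is a minor PAL copy in these leaves. Of 7 genes annotated as PAL, all tested, Ebr01G053210 on chromosome 1 was the most abundant, with a mean of 216 FPKM over the 12 libraries. Ebr06G007300 followed with 38.5 FPKM and Ebr06G007290 with 34.7 FPKM. EpPAL4 had 7.65 FPKM, and of the 7 only Ebr06G041720, with 6.10 FPKM, had a lower mean. This order changed with the group: EpPAL4 was below Ebr06G041720 in 30d +P (3.47 against 6.01 FPKM) and in 90d -P (2.84 against 6.10 FPKM), and above it in 30d -P and 90d +P. Ebr06G007290 was above Ebr06G007300 in 30d -P, with 82.5 against 51.2 FPKM. EpPAL4 took 0.278% to 5.19% of the summed PAL FPKM of a library, with a median of 1.32%. The summed PAL level had group means of 549 FPKM in 30d -P and 375 FPKM in 30d +P, and of 189 FPKM in 90d -P and 284 FPKM in 90d +P. The high values of EpPAL4 in replicates B and C of 30d -P therefore concerned a small share of the PAL reads.

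EpPAL4 sits in a row of 3 PAL genes on chromosome 6, from 50165407 to 50268288, with no other listed gene between them. Ebr06G007290 starts 2197 bases after EpPAL4 on the same strand, and Ebr06G007300 lies 89205 bases further on the opposite strand. Whether reads shared by such copies were split, dropped or counted for either is not given in the sources used here, so the division of reads among the 3 is uncertain. In 30d -P, Ebr06G007290 had 19.0, 144 and 84.2 FPKM in A, B and C, the same order of a low A and a high B as EpPAL4. Ebr06G007300 had 41.9, 69.4 and 42.3 FPKM there. The next gene on the other side of EpPAL4, Ebr06G007270, annotated as a UMP-CMP kinase, had 52.1, 38.5 and 39.7 FPKM in the same libraries. A low replicate A was thus seen in the adjoining PAL gene and not in the adjoining kinase gene. It was not limited to the row. Ebr06G041720, a PAL gene elsewhere on chromosome 6, had 0.305, 18.8 and 11.8 FPKM in A, B and C of 30d -P.

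No PAL gene was called in any comparison. In 30d -P against 30d +P 7 of 7 had a log2 fold change above 0, with a median of 0.47, against -0.01 over all genes tested, and none of the 7 had groups free of overlap. For 90d -P against 30d -P 7 of 7 were below 0, with a median of -1.01 against 0.03 over all genes. There Ebr06G007290 had the lowest value, -3.20 (SE 1.11, adjusted p = 0.107), and 3 of 7 were lower without overlap, against 18% of all genes. In 90d -P against 90d +P 6 of 7 were below 0, with a median of -0.40. The median was -0.38 in 90d +P against 30d +P.

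C4H, the step between PAL and 4CL, is a single annotated gene, Ebr01G074580. In replicates A, B and C it had 570, 690.5 and 442 FPKM in 30d -P, and 403, 585 and 599 FPKM in 30d +P. At 90 d it had 343, 80.0 and 157 FPKM in -P and 139, 32.8 and 777 FPKM in +P. Replicate C of 90d +P was its highest library and replicate B of 90d +P its lowest. Its log2 fold change was 0.09 in 30d -P against 30d +P (adjusted p = 0.993) and -1.55 in 90d -P against 30d -P (adjusted p = 0.314).

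Ep4CL had a single close partner, Ebr05G005780 on chromosome 5, annotated as 4-coumarate--CoA ligase 1. By mean FPKM the 2 were alike, 97.7 for Ep4CL and 82.1 for Ebr05G005780, and Ep4CL took 31.7% to 79.6% of their sum, with a median of 52.1%. They differed in 30d -P: Ebr05G005780 had 56.2, 246 and 164 FPKM in A, B and C, while Ep4CL had 220, 190 and 156 FPKM. In replicate A, Ep4CL was at its highest of all 12 libraries and its partner was below every library of 30d +P. Ebr05G005780 had a log2 fold change of 0.48 in 30d -P against 30d +P (adjusted p = 0.958) and of -2.45 in 90d -P against 30d -P (SE 0.91, adjusted p = 0.128). In 90d +P against 30d +P it was -1.76 (adjusted p = 0.280). In both time comparisons its groups did not overlap, against 33.3% of all genes tested in -P leaves and 26% in +P leaves, in either direction. A further 5 genes annotated as 4CL-like had log2 fold changes of -0.70 to 0.89 in 90d -P against 30d -P, and none was called in any comparison.

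The CHI list, drawn by annotation words, held 15 genes, of which 11 had reads and 7 were tested. It includes chalcone isomerase-like (CHIL) and fatty-acid-binding proteins of the same fold, which are not known as isomerases. Ebr06G004170, which lies 9168 bases after EpCHI2 and is the other tested gene annotated as chalcone--flavanone isomerase, had a mean of 1.68 FPKM against 385 FPKM for EpCHI2. EpCHI2 thus carried nearly all reads of that annotation. CHIL1 (Ebr03G053680), annotated as chalcone isomerase-like protein 1, had 91.6, 86.1 and 160 FPKM in 30d -P and 143, 161 and 217 FPKM in 30d +P. At 90 d it had 909, 950.1 and 520 FPKM in -P and 1140, 549 and 388 FPKM in +P, so that every library of 90 d was above every library of 30 d.

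CHIL1 was the called gene of the CHI list. It rose in 90d -P against 30d -P by 2.82 on the log2 scale (SE 0.45, adjusted p = 0.0167 from edgeR) and in 90d +P against 30d +P by 1.98 (SE 0.44, adjusted p = 0.0398). The first call was lost without 30d -P replicate A, 30d -P replicate B or 90d -P replicate B (adjusted p of 0.0622, 0.0719 and 0.0617). The second was kept in 4 of the 12 fits that left out a library, with adjusted p-values from 0.0358 to 0.149. CHIL2 (Ebr01G073610), which had a mean of 206 FPKM, had log2 fold changes of -0.02 and 0.29 in the same comparisons and was not called. As CHIL1 rose, the share of EpCHI2 in the summed FPKM of the list was 53.7% to 57.6% in 30d -P, 31.4% to 53.8% in 30d +P, 19.6% to 26.7% in 90d -P and 12.8% to 42.0% in 90d +P. No difference between EpCHI2 and CHIL1 in their change over time was tested.

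**Figure D3:**
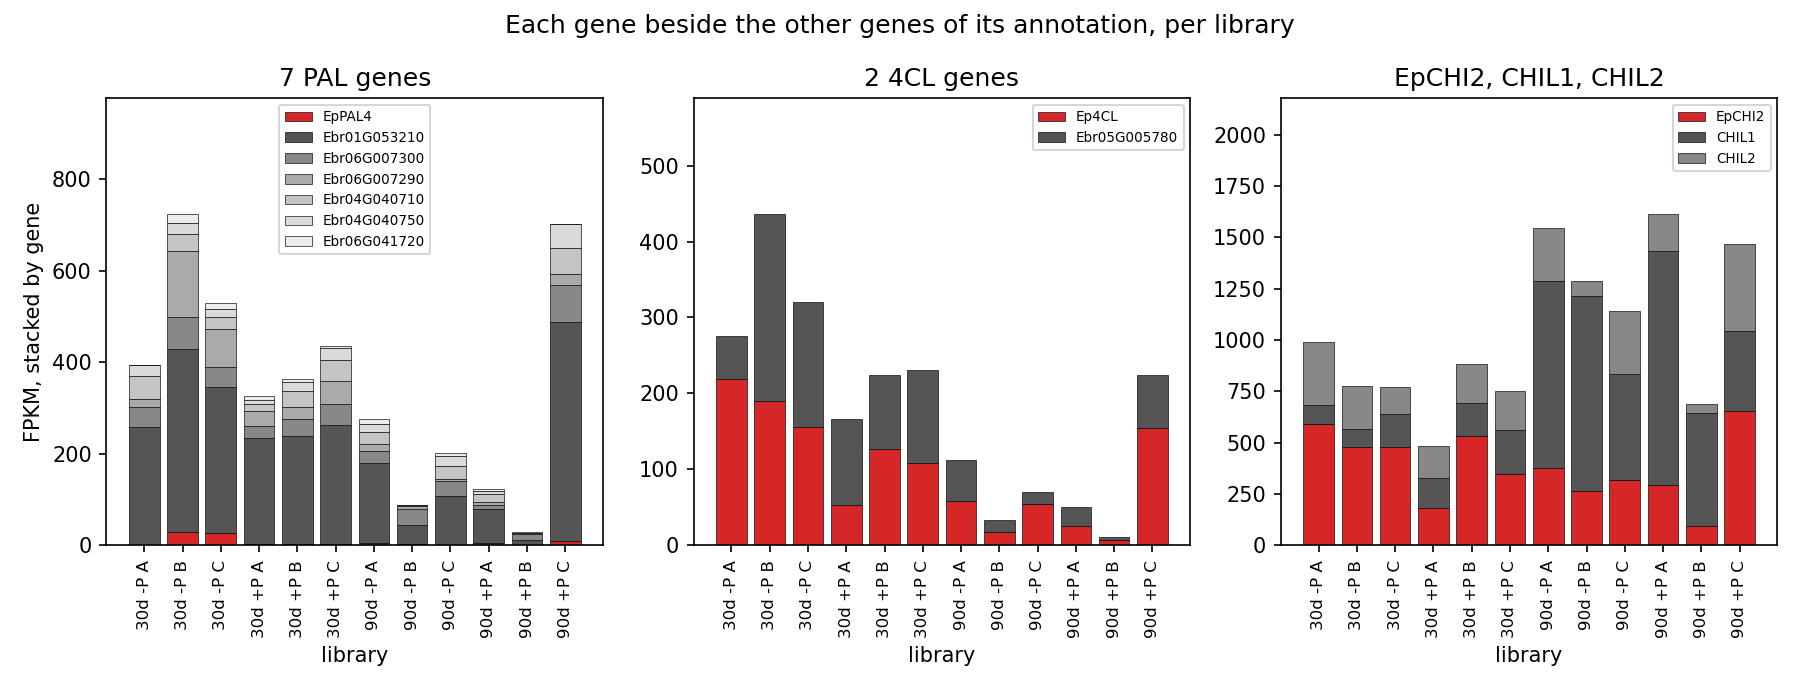
FPKM per library, stacked by gene, of the 7 PAL genes, the 2 4CL genes, and EpCHI2 with CHIL1 and CHIL2; EpPAL4, Ep4CL and EpCHI2 are in red at the base of each bar. EpPAL4 forms at most 5.19% of a PAL bar, the 4CL bars are shortest at 90 d apart from 90d +P replicate C, and the CHIL1 segment is tallest at 90 d.

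Replicates B and C of 90d +P stood apart for most genes of the entry route. Of 12 genes, the 7 PAL genes, C4H, the 2 4CL genes and the 2 isomerase genes, 11 were highest in replicate C of the group and 9 were lowest in replicate B. Over all genes tested, C was the highest of the 3 for 32.7% and B the lowest for 36.6%. The ratio of C to B by FPKM had a median of 22.6 over the 12 genes, against 0.993 over 22180 genes with reads in both. It was 66.8 for EpPAL4, 21.6 for Ep4CL and 7.0 for EpCHI2. Ebr06G041720, a PAL gene, was the exception with a ratio of 0.311. This ordering was noticed in the values and is a description. The mesophyll list summed to 28280 FPKM in replicate B and 49700 FPKM in replicate C of 90d +P. Replicate A of that group had its highest sum, 55210 FPKM, and was highest for 1 of the 12 entry genes. In 90d -P replicate B the sum was 32310 FPKM. There 7 of the 12 entry genes were the lowest of their group, against 30.7% of all genes tested. In 30d +P replicate A the sum was 63910 FPKM, above the 61800 FPKM of C, and 8 of the 12 entry genes were lowest in A. Whether the makeup of these leaves bears on the entry genes was not tested.

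In 30d +P the low library was A, lowest of its group for 8 of the 12 entry genes against 43.8% of all genes. In 30d -P replicate B was highest for 9 of the 12, against 24.6% of all genes. Ep4CL and EpCHI2 were not among those 9: both peaked in replicate A.

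**Figure D4:**
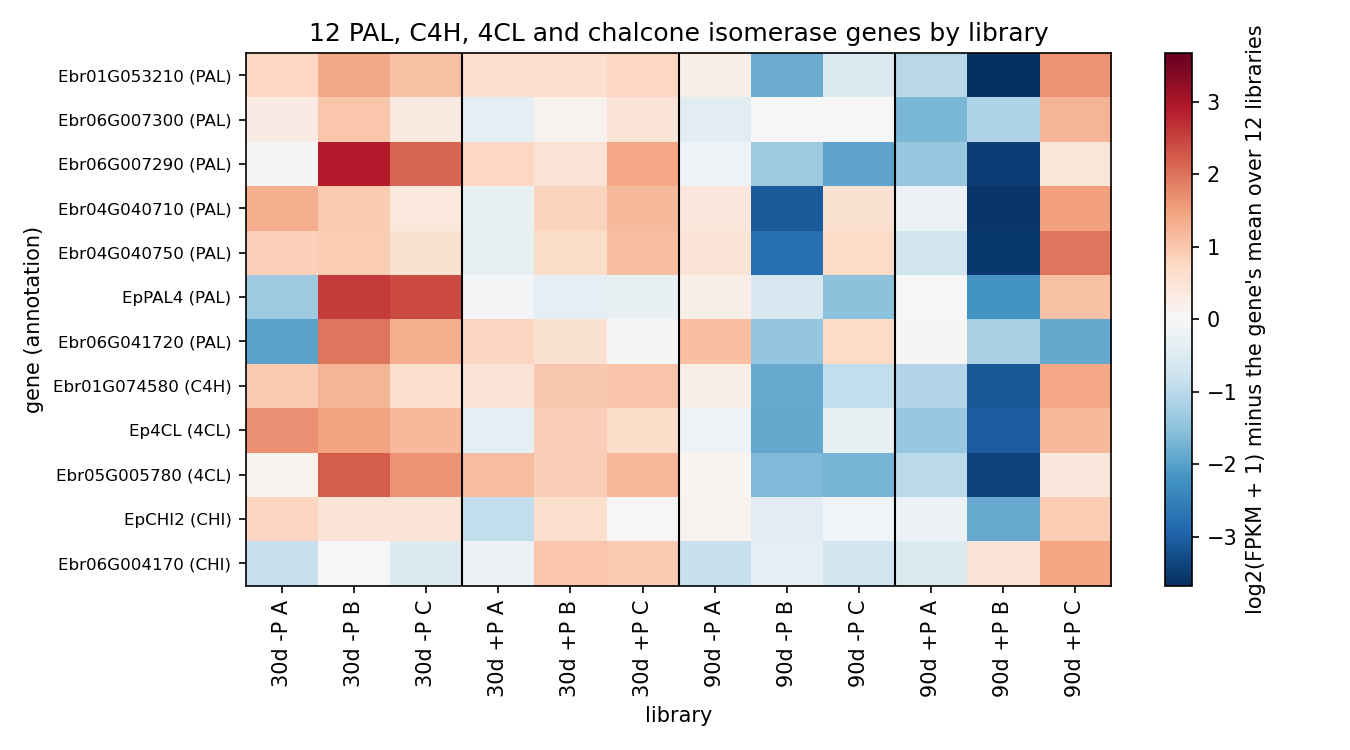
Log2(FPKM + 1) of the 12 PAL, C4H, 4CL and isomerase genes in each library, less the mean of the gene over the 12 libraries, on a scale from blue (below the mean) to red (above it). Replicate B of 90d +P is the bluest column and replicate C of 90d +P is red for 11 of the 12 genes, while EpPAL4 and Ebr06G007290 are reddest in replicates B and C of 30d -P.

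Over the 12 libraries, log2 CPM of Ep4CL and EpCHI2 gave Pearson's r of 0.88 and Spearman's rho of 0.89, and r was 0.925 after each group mean was removed. EpPAL4 gave r of 0.63 with either gene, with rho of 0.48 for Ep4CL and 0.41 for EpCHI2. Ep4CL gave r of 0.95 with C4H and 0.95 with the main PAL gene Ebr01G053210, and those 2 gave 0.98 with each other. These values describe 12 libraries that share their depth and scaling for all genes. With the same main PAL gene EpPAL4 gave r of 0.75 (rho 0.67), with the chalcone synthase EpCHS1 0.74 (rho 0.77) and with C4H 0.68 (rho 0.55). Without replicates B and C of 90d +P, a choice made after seeing the data, r over 10 libraries was 0.77 for Ep4CL with EpCHI2 and 0.90 for Ep4CL with C4H. It was then 0.31 for EpPAL4 with Ep4CL and 0.21 for EpPAL4 with EpCHI2.

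The genes most like each of the 3 were sought among 20679 genes with a mean of at least 1 CPM, by Pearson's r of log2 CPM over the 12 libraries. For EpPAL4 they were Ebr01G055260, annotated as Laccase-10 (r = 0.92, rho = 0.80), Ebr01G055730, annotated as arogenate dehydratase 1 (r = 0.92, rho = 0.92), and Ebr02G072280, a gene with a domain of unknown function (r = 0.91, rho = 0.79). Laccases oxidise lignin precursors, and arogenate dehydratase makes phenylalanine, the substrate of PAL. The laccase gene had 7.61 CPM in replicate A of 30d -P, 422 CPM in B and 474 CPM in C, and 0.161 CPM in 90d +P replicate B. The dehydratase gene had 10.8, 79.5 and 44.1 CPM in 30d -P and 1.29 CPM in 90d +P replicate B. Both had, like EpPAL4, a low replicate A in 30d -P and a lowest value in replicate B of 90d +P. Such likeness follows from their choice by r over these same libraries.

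For Ep4CL the most similar genes were Ebr02G037750, annotated as the methionine synthase 5-methyltetrahydropteroyltriglutamate--homocysteine methyltransferase 1 (r = 0.99, rho = 0.93), and Ebr05G052880 and Ebr05G052940, both annotated as leucoanthocyanidin dioxygenase, an enzyme of anthocyanin synthesis (r = 0.97 each). The last pair may share reads. Ebr02G037750 had 4061, 3820 and 2025 CPM in 30d -P and 489, 135 and 2438 CPM in 90d +P. For EpCHI2 they were Ebr04G003250, annotated as bark storage protein A (r = 0.94), EpCHS5 (Ebr03G073940), a chalcone synthase (r = 0.94), and Ebr04G060820, annotated as 3-dehydroquinate synthase of the shikimate pathway (r = 0.93). EpCHS5 had 402, 257 and 120 CPM in 30d -P and 44.9, 0.376 and 775 CPM in 90d +P. The synthase gene Ebr04G060820 kept within 125 to 265 CPM over the 12 libraries and peaked, like EpCHI2, in 90d +P replicate C.

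Past the entry steps, 12 flavonoid genes that the study names, from chalcone synthases to flavonol synthases, were followed as a list. The study selected them for being raised in 30d -P against 30d +P in these samples, so their direction there was set by the selection and nothing is read from it. None was called in that comparison. In 90d -P against 90d +P 8 of 12 were below 0, with a median of -0.19. All 12 were highest in replicate C among the libraries of 90d +P, and 9 were lowest in replicate B. EpCHS3 (Ebr03G073780), a chalcone synthase, was the called gene of the list. It rose by 4.13 on the log2 scale in 90d -P against 30d -P (adjusted p = 0.00282 from edgeR). In 90d +P against 30d +P it rose by 6.07 (adjusted p = 0.000724 from edgeR). Both calls were kept in 12 of 12 fits that left out a library. Each of these comparisons shares a 30 d group with the selection, so neither is independent of it.

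The name EpPAL4 is used in the study for a second identifier, Ebr05G038410, which the tables annotate as the transcription factor MYB3 and not as PAL. It had 81, 71 and 63 reads in A, B and C of 90d -P (3.89 to 4.92 CPM) and 19 to 123 reads in 90d +P (1.02 to 6.64 CPM). Its log2 fold change was 0.25 in 90d -P against 90d +P (adjusted p = 1.00), -1.26 in 90d -P against 30d -P (adjusted p = 0.167) and -1.32 in 90d +P against 30d +P (adjusted p = 0.172). In the time comparisons its groups did not overlap, as was so in either direction for 33.3% of all genes tested in -P leaves and 26% in +P leaves. Values given for EpPAL4 here are those of Ebr06G007280 throughout.

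The genes listed next to Ep4CL and EpCHI2 had lower mean FPKM over the 12 libraries than these 2 genes. Ebr04G003010, annotated as Protein AE7 and 19261 bases before Ep4CL, had 36.7, 33.0 and 38.4 FPKM in 30d -P and 48.4, 46.0 and 54.8 FPKM in 90d +P. Its log2 fold change in 90d -P against 30d -P was 0.32 (adjusted p = 0.260), where that of Ep4CL was -2.10. Ebr04G003030, on the other side, and Ebr06G004150, before EpCHI2, had means of 2.40 and 0.965 FPKM. Ebr06G004170, after EpCHI2, had 0.610, 2.28 and 5.33 FPKM in A, B and C of 90d +P. Like EpCHI2 it was highest there in C, but its lowest library there was A, where that of EpCHI2 was B. None of these neighbours was called in any comparison.

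The list of markers of lignifying cells held 13 cellulose synthase genes of the secondary wall type and 20 genes annotated as laccase-4 or laccase-17, of which 1 and 3 had no reads in any library. Its summed level was 488 to 1301 FPKM in 30d -P and 285 to 894 FPKM in 30d +P, against 11.1 to 92.9 FPKM in 90d -P and 11.8 to 67.5 FPKM in 90d +P. Of 22 tested, 3 were called lower in each time comparison. Of all genes, 5.58% were called in either direction in -P leaves and 3.02% in +P leaves. The median log2 fold change of the 22 was -3.95 in -P leaves and -5.50 in +P leaves, against 0.03 and 0.02 over all genes. None of the 22 was called between -P and +P. Markers of dividing cells, 9 genes of which 2 had no reads, summed to 101 to 184 FPKM over all libraries. The part of the lignifying cells in the lower Ep4CL and PAL levels of 90d -P was not tested.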

How the data were processed

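Leaf RNA of E. pubescens was sequenced by the authors from NEBNext libraries. The deposited counts are whole reads per gene without normalization. The deposited FPKM values are those counts per kilobase of listed gene length and per 1000000 reads of a library size that the authors scaled. The submitters' processing notes list HISAT2 2.0.5, StringTie 1.3.3b and featureCounts 1.5.0-p3, and the treatment of strand and of shared reads is not given in the sources used here. Coordinates are those of the deposited tables.

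Counts were tested with edgeR 4.0.16 in R 4.3.3 (TMM scaling, filterByExpr, robust quasi-likelihood fit, a mean for each of 4 groups over 12 libraries, 8 residual degrees of freedom), with Benjamini-Hochberg adjustment over 24307 genes. A call needed an adjusted p of at most 0.05 and a log2 fold change of at least 1 in size. Alternatives used DESeq2 1.42.0, limma 3.58.1, RLE scaling, no filter, FPKM, a replicate block and each library left out. Tests were two-sided. The fit was tested on simulated counts in which 200 of the better counted genes were changed in 90d -P, in equal numbers by 4-fold and 16-fold. In 90d -P against 30d -P, edgeR called 47 of the 4-fold and 84 of the 16-fold changes, with 4 false calls. DESeq2 called 69 and 97 on the 6 libraries, with 157 false calls, and 71 and 96 on all 12, with 109 false calls. For limma-voom with sample quality weights the calls were 42 and 78, with 4 false calls. The simulated spread of each gene was the one fitted by edgeR. A gene that edgeR did not call may therefore still have changed by such a fold.

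The 3 genes and the lists were chosen with earlier results of these data known. Besides them, the text names the 3 most abundant genes and every called gene of each family, the 3 genes most like each of the 3 by Pearson's r of log2 CPM (prior count 2), the next listed gene on either side, the identifier that shares the name EpPAL4, and called downstream genes. Whether the replicate letters pair the libraries was not settled, so the block is given with the other alternatives only.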

Additional observations from a re-analysis of the deposited data

How the results depend on the processing

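Of the values of the 3 genes under other settings, 299 kept their direction and their side of the threshold, 22 changed direction and 3 passed the threshold. The passes were all in 90d -P against 30d -P: EpPAL4 by DESeq2 on the 6 libraries (-2.77, adjusted p = 0.0475), and Ep4CL by DESeq2 on the 6 libraries (-2.11, adjusted p = 0.000388) and by limma-voom (-2.27, adjusted p = 0.0390). In 90d -P against 90d +P, EpPAL4 turned to 0.0755 by limma on log2(FPKM + 0.1). In the same groups Ep4CL turned to 0.0684 by limma-voom and to 0.34, 0.30 and 0.10 on log2(FPKM) with 0.1, 1 and 10 added. EpCHI2 there turned to 0.0161 by limma-voom, to 0.27 with 0.1 or 1 added and to 0.24 with 10 added. In 90d +P against 30d +P, EpPAL4 turned to -0.0656 by limma-voom and to -0.13 and -0.67 with 1 and 0.1 added. The cause was not tested.

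With each library left out, the log2 fold changes of EpPAL4, Ep4CL and EpCHI2 ranged from 2.05 to 3.05, 0.67 to 1.22 and 0.22 to 0.96 in 30d -P against 30d +P. They ranged from -1.52 to 0.36, -1.04 to 1.45 and -0.58 to 0.73 in 90d -P against 90d +P, the highest of each without 90d +P replicate C. For 90d -P against 30d -P they ranged from -3.56 to -2.35, -2.37 to -1.73 and -0.83 to -0.57. For 90d +P against 30d +P they ranged from -0.66 to 1.04, -2.59 to -0.11 and -0.89 to 0.41, where EpCHI2 was also above 0 without 30d +P replicate B (0.39) and without 90d +P replicate A (0.06). The interaction ranged from -4.01 to -2.13, -2.00 to 0.49 and -1.11 to 0.20. None of the 3 genes was called in these fits.

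The letters A, B and C were shared between groups. For deviations of libraries of the same letter, r ranged from -0.233 to 0.212 over 18 pairs, 3 of them over 0.1. Pairs of differing letters were not compared, so these values do not settle whether the letters pair the libraries. With the letter as a replicate block EpCHI2 turned to 0.0225 in 90d -P against 90d +P, the calls in 90d -P against 30d -P numbered 121 and in 90d +P against 30d +P 10, CHIL1 was not called (adjusted p = 0.0512 and 0.0951), and no call of the 3 genes changed.

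Genes called over the whole table moved with the tool. In 30d -P against 30d +P edgeR called 0, DESeq2 560 on 6 libraries and 286 on 12, and limma-voom 398, with 0 to 1 when a library was left out. In 90d -P against 90d +P edgeR called 0, DESeq2 184 and 245, and limma 3 and 9 on log2(FPKM) with 1 and 0.1 added, with 0 to 2 when a library was left out. In 90d -P against 30d -P edgeR called 1356 on 12 libraries and 314 on 6, DESeq2 3220 on 6 and 3240 on 12, limma-voom 2406 and limma on log2(FPKM + 10) 656, with 55 (without 30d -P replicate B) to 1602 (without 30d +P replicate A) when a library was left out. In 90d +P against 30d +P the same fits called 734, 2, 2201, 2377, 2061 and 438, with 4 (without 30d +P replicate B) to 1424 (without 30d +P replicate A). For the interaction edgeR called 0 and DESeq2 32. CHIL1 was not called in 90d +P against 30d +P by edgeR on the 6 libraries (adjusted p = 0.0978). The fits of CHIL1 and EpCHS3 under other settings were chosen after seeing the data.

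On depth, the fewest reads of EpPAL4 in a library were 7 (exact Poisson interval 2.81 to 14.4, counting error only), and Ep4CL and EpCHI2 had at least 275 and 1449 reads in every library. The highest library of 30d -P held 28.3 times the CPM of the lowest for EpPAL4.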
